A study of Drosophila melanogaster with 3 samples.

Results

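The chemosensory receptor and odorant-binding genes of Drosophila melanogaster are 230 of the 13945 protein-coding genes on the 6 chromosome arms. They were chosen by name, as every protein-coding gene of the Ensembl annotation whose symbol is Or, Gr, Ir or Obp followed by a digit. This gave 59 odorant receptor (Or), 60 gustatory receptor (Gr), 60 ionotropic receptor (Ir) and 51 odorant-binding protein (Obp) genes. The names do not use the binding data. The data are the authors' peak lists from chromatin immunoprecipitation and sequencing of Vrille, a bZIP repressor of the circadian clock, in 3 biological replicates of 1 group. All animals were whole white prepupae, males and females together, of a transgenic vri-GFP line that carries Vrille with GFP at its C terminus, and the chromatin was pulled down through the GFP. No mock or untagged library was analysed here, and whether the line still makes untagged Vrille is not given in the sources used here.

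Insects smell and taste with small sets of sensory neurons. Most olfactory neurons choose 1 tuning Or or Ir gene out of the whole family and combine its product with a common co-receptor, which is Orco for Or proteins and Ir25a, Ir8a or Ir76b for Ir proteins. Gr proteins serve in taste neurons for sugars and bitter compounds and, in a few neurons, for carbon dioxide, warmth or fructose inside the body. Obp proteins are small secreted carriers made mainly by the support cells around these neurons, and some are made outside sensory organs. In the white prepupa the larval sense organs are still present and the adult ones are being formed from imaginal discs. Chromatin of whole animals holds these cells beside far larger tissues, so binding in a few cells and weak binding in many cannot be told apart, and transcription was not measured.

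A gene is called bound when the summit of an optimal peak, one of the 9264 kept by the authors at their limit on the irreproducible discovery rate (IDR, a measure of how well ranks repeat between replicates), lay within 1 kb of one of its start sites. By this rule 7 of the 230 chemosensory genes were bound (3.04%), against 27.5% of all protein-coding genes. These were Or49b and Or88a of 59 Or genes (3.39%), Gr64a of 60 Gr genes (1.67%), Ir60b and Ir94h of 60 Ir genes (3.33%), and Obp83g and Obp99b of 51 Obp genes (3.92%). The counts of the 4 families lay within 1 gene of each other. Among other large gene families, Cpr genes for cuticle proteins were bound in 7 of 70 cases (10%) and Cyp genes for cytochrome P450 enzymes in 23 of 85 (27.1%).

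Part of this small number belonged to neighbouring genes. When each optimal summit was counted only for the gene with the nearest start, 3 chemosensory genes stayed bound (1.3%), against 22.1% of all genes. They were Ir94h, Obp83g and Obp99b. The other 4 summits lay nearer to the start of a non-chemosensory gene, and with this rule 0 Or and 0 Gr genes were bound. By the same rule 7 Cpr and 21 Cyp genes were bound. A window of 500 bp in place of 1 kb gave 4 chemosensory genes, against 23% of all genes, and the stronger 50% of the optimal peaks gave 6, against 18.2% of all genes.

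**Figure D1:**
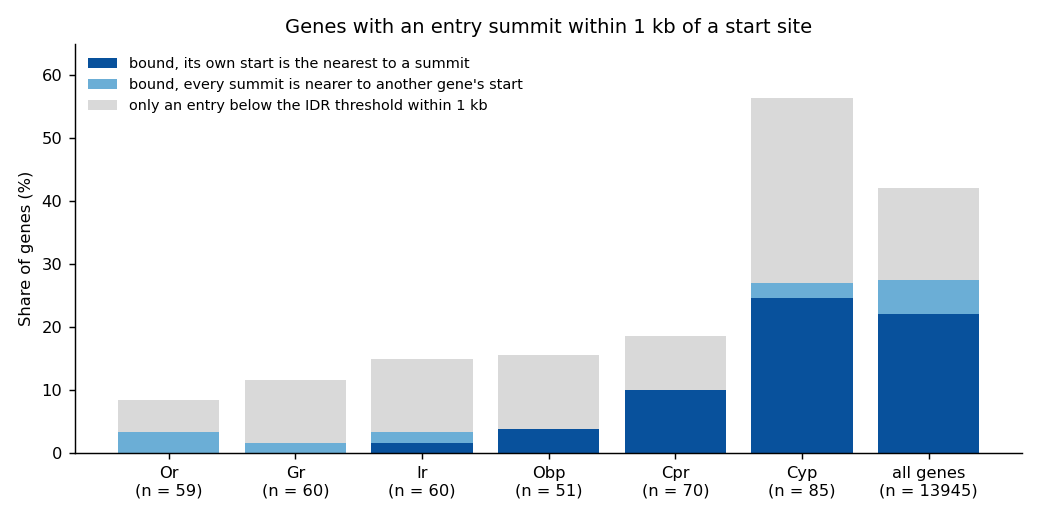
Share of genes (%) with the summit of a deposited peak within 1 kb of a start site, for the 4 chemosensory families, the Cpr and Cyp families and all 13945 genes. Dark blue are bound genes whose own start is the nearest to a summit, light blue are bound genes whose summits are all nearer to another gene's start, and grey are genes with only an entry below the IDR threshold. The Or and Gr bars hold no dark blue, and the 4 chemosensory bars end between 8.47% and 15.7%, against 42.1% for all genes.

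The low share was found in each replicate by itself. Among the 9264 highest entries of a replicate's own list, chemosensory genes were bound in 2.61% of cases in replicate 1, 4.78% in replicate 2 and 3.48% in replicate 3, or 3.62% ± 1.09 (SD, n = 3). For all genes the mean was 28.4% ± 1.22 (SD, n = 3). By family the means were 3.39% ± 1.69 for Or, 3.33% ± 0 for Gr, 3.33% ± 1.67 for Ir and 4.58% ± 1.13 for Obp (SD, n = 3 each). The family means lay between 3.33% and 4.58%, with Obp highest, and no test was made between them. Counting any of the 30000 entries of each replicate gave 11.9% ± 1.33 for chemosensory genes and 44.8% ± 1.37 for all genes (SD, n = 3).

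The 2 bound odorant-binding genes had summits of their own. Obp83g (chromosome 3R, 6111671 to 6112302, minus strand, dm6) had the highest peak within 1 kb of a start of any of the 230 genes, ranked 708 by signal in the pooled list. Its summit lay between genes, 612 bp upstream of the only start of Obp83g. Signal is given relative to the median optimal peak of the same replicate, which is 1. At Obp83g it was 2.25 in replicate 1, 3.16 in replicate 2 and 2.58 in replicate 3, a mean of 2.66 ± 0.461 (SD, n = 3), so all 3 libraries placed it above the median optimal peak. The nearest other start, that of its neighbour Obp83ef, was 1880 bp from the summit, and the nearest start outside the families, of the proton pump subunit gene Vha14-2, was 9678 bp away. Obp99b (3R, 29716254 to 29716896, minus strand) had a narrow peak of 110 bp with its summit 246 bp upstream. Its relative signal was 1.08, 0.772 and 0.773 in replicates 1, 2 and 3 (mean 0.873 ± 0.175, SD, n = 3). Its nearest other start, of CG15506, was 1521 bp from the summit.

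Of the 2 bound ionotropic receptor genes, Ir94h had a summit of its own. The gene (3R, 23487501 to 23489180, plus strand) is the last of 3 consecutive genes from Ir94f to Ir94h, and its summit lay 562 bp upstream of its start. The relative signal was 1.56, 1.12 and 1.37 in replicates 1, 2 and 3 (mean 1.35 ± 0.218, SD, n = 3), above the median peak in each library. The nearest other protein-coding start was that of Ir94g at 3076 bp, and the start of a long noncoding RNA, lncRNA:CR44324, lay 1458 bp away.

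The sequence around a summit is shown for the 5 bound genes that can be printed, as 101 bp with the summit in the middle, plus strand, from the RefSeq Release 6 genome (dm6). Capitals mark GAGAG, a word of the kind that GAGA factor binds; the reverse complement was searched too. The windows are chr3R:6112864-6112964 for Obp83g, chr3R:29717092-29717192 for Obp99b, chr3R:23486889-23486989 for Ir94h, chr3L:4026256-4026356 for Gr64a and chr3R:14108607-14108707 for Or88a.
Obp83g: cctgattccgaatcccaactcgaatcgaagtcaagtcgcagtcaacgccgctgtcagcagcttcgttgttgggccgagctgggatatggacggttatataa
Obp99b: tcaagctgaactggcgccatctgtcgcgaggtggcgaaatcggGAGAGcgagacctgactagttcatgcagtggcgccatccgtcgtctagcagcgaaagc
Ir94h: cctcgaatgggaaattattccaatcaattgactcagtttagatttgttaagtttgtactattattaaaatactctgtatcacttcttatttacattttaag
Gr64a: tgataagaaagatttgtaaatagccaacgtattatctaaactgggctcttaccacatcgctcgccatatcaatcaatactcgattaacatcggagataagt
Or88a: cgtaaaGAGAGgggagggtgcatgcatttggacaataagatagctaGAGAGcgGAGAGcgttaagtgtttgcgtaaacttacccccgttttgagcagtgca

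None of the 7 windows, the other 2 included, held the VP box that Vrille and Pdp1 are each known to bind. It was searched as TTACGTAA or TTATGTAA on either strand. The box was found at 2.07% of the 4552 optimal summits within 1 kb of a start and at 2.34% of all 9264 optimal summits, so most summits lack these exact letters. GAGAG was found at 3 of the 7 summits, those of Obp99b, Or49b and Or88a, against 18.7% of summits near starts. The base composition differed widely between the windows, with 26.7% G or C at Ir94h and 59.4% at Obp99b.

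The summits of the other 4 bound genes were shared. In each case the nearer gene ran the opposite way from a start on the same side, so that the peak lay between, or close to, a pair of divergent starts. Gr64a encodes a receptor for sucrose and maltose and heads a cluster of sugar receptor genes (3L, 4026769 to 4028600, plus strand). Its summit lay 463 bp upstream of Gr64a and 295 bp from the start of CG11594. The relative signal was 1.06, 1.24 and 1.28 in replicates 1, 2 and 3, a mean of 1.2 ± 0.117 (SD, n = 3), so it was above the median peak in all 3 libraries. Or88a, which encodes a receptor of antennal neurons that respond to the odours of other flies (3R, 14109445 to 14110823, plus strand), had a summit 788 bp upstream, and this summit lay 336 bp from the start of CG12402. Its relative signal was 1.07, 1.51 and 0.925 in replicates 1, 2 and 3 (mean 1.17 ± 0.303, SD, n = 3), on both sides of the median peak.

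Ir60b, which acts in a taste neuron of the pharynx that limits sugar feeding (2R, 24515685 to 24517458, plus strand), had a summit 472 bp upstream. That summit lay in an intron of Letm1, which encodes a cation exchanger of the mitochondrial inner membrane, 107 bp from the Letm1 start. The peak ranked 1822 in the pooled list and had relative signals of 1.75 in replicate 2 and 1.62 in replicate 3 (mean 1.68 ± 0.0903, SD, n = 2), while the list of replicate 1 held no overlapping entry. Or49b, an odorant receptor gene of the adult antenna (2R, 12842665 to 12844704, plus strand), starts 107 bp from the start of Cyp9h1, a cytochrome P450 gene. The summit lay 93 bp from Or49b and 14 bp from Cyp9h1. Its relative signal of 0.403, 0.862 and 0.649 in replicates 1, 2 and 3 (mean 0.638 ± 0.23, SD, n = 3) was below the median peak in every library, and it was the lowest of the 7.

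**Figure D2:**
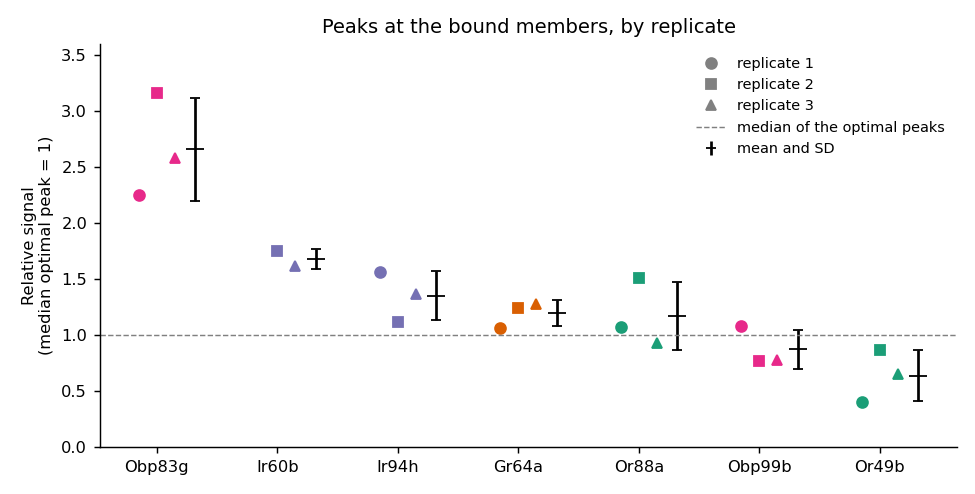
Relative signal of the peak at each of the 7 bound chemosensory genes, in order of pooled rank, as the authors' signal divided by the replicate's median over the optimal peaks (dashed line at 1). Coloured points are replicates, and black bars are the mean and SD. Obp83g is above 2 in all 3 replicates, Or49b below 1 in all 3, and Ir60b has no point for replicate 1.

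The 7 peaks were of ordinary height. Their mean relative signals had a median of 1.2, and the 4552 optimal peaks within 1 kb of any start had a median of 1.07, with quartiles of 0.744 and 1.7. All 7 summits lay upstream of the chemosensory start, between 93 and 788 bp away. Of the 7 genes, 5 (Gr64a, Ir94h, Obp83g, Obp99b and Or88a) were bound in each replicate's own highest entries, and Ir60b and Or49b were bound in replicates 2 and 3 only. A further 6 genes were bound in the highest entries of 1 replicate without being bound in the optimal list. These were Gr63a in replicate 1, Gr97a, Ir60e, Obp83ef and Or67a in replicate 2, and Gr32a in replicate 3. The remaining 217 genes were bound in none of the 3.

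**Figure D3:**
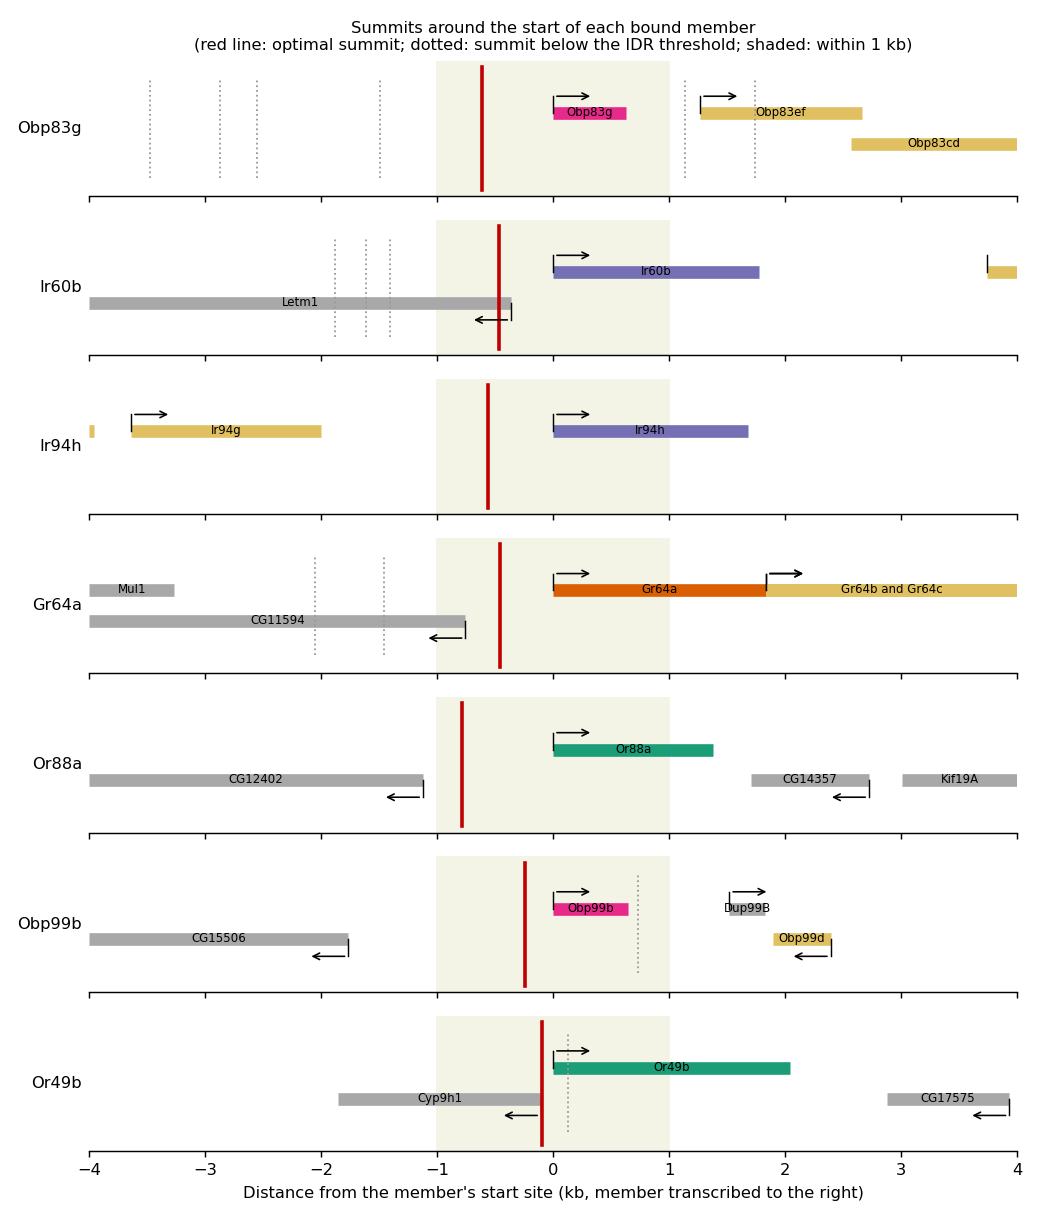
Genes and peak summits within 4 kb of the start of each bound chemosensory gene, drawn so that the named gene runs to the right. Red lines are optimal summits, dotted lines are summits of entries below the IDR threshold, coloured bars are the bound gene, yellow bars other chemosensory genes and grey bars all others, and arrows mark starts. At Ir60b, Gr64a, Or88a and Or49b a grey gene that runs to the left starts nearer to the red line than the bound gene does.

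Below the IDR threshold, 22 further chemosensory genes had only a weaker entry of the pooled list within 1 kb (9.57%), against 14.7% of all genes. These were 3 Or (5.08%), 6 Gr (10%), 7 Ir (11.7%) and 6 Obp genes (11.8%). With these entries counted, 29 of the 230 genes had any entry (12.6%), against 42.1% of all genes, and 201 had none. Among genes with any entry, 24.1% of the chemosensory genes and 65.2% of all genes were bound, so the entries near chemosensory genes lay lower in the list. The best entries of the 22 genes ranked between 9844 and 29152 of 30000, with a median of 20197, against a median of 16060 for the 2045 genes of this kind in the genome.

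For most of these genes the weaker entry lay nearest to their own start. Of the 22 genes, 16 were themselves the gene with the nearest protein-coding start, and for 18 the summit lay upstream. Some of these entries still lay inside another gene, as at Ir60a (nord), Gr77a (CG13252), Ir85a (Pif1A and Pif1B) and Obp18a (RhoGAP18B). The same counts were not made for all genes, so they have no background. Overlapping entries were found in all 3 replicate lists for 10 genes, in 2 lists for 5, in 1 list for 5 and in no replicate list for 2. The last 2 are Gr10a and Or10a, which share a start and 1 pooled entry and are known to be used in the same antennal neuron, so 21 distinct entries lay behind the 22 genes.

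**Figure D4:**
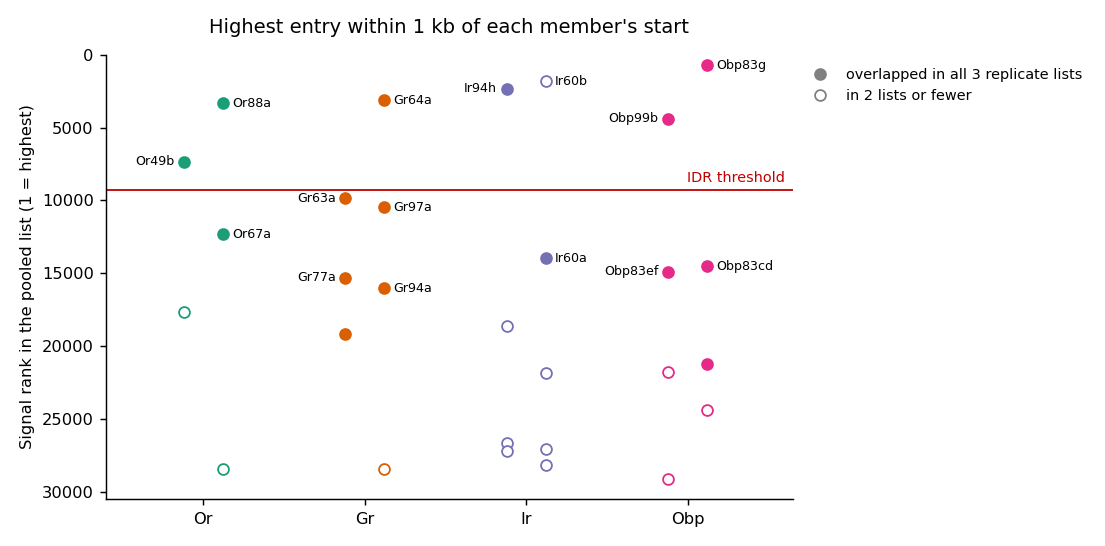
Signal rank in the pooled list (1 is the highest) of the highest entry within 1 kb of each of the 29 chemosensory genes that had one, by family. The red line is the IDR threshold at rank 9264, and filled points are entries overlapped in all 3 replicate lists. The 7 bound genes lie above the line, and the points just under it are Gr63a and Gr97a at ranks 9844 and 10454.

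The highest of the weaker entries was at Gr63a, which encodes a subunit of the carbon dioxide receptor (3L, 3894999 to 3896603, minus strand). Its summit lay 238 bp upstream of Gr63a but 59 bp from the start of Lamtor4, a gene of the lysosomal complex that anchors TOR signalling. The relative signal was 0.676, 0.247 and 0.354 in replicates 1, 2 and 3 (mean 0.426 ± 0.223, SD, n = 3), highest in replicate 1. Gr97a came next, with 0.306, 0.799 and 0.522 in replicates 1, 2 and 3 (mean 0.542 ± 0.247, SD, n = 3), at a summit 702 bp upstream of it and 257 bp from CG5521. Or67a, a receptor gene for fruit esters in the adult antenna, had an entry of its own 27 bp upstream of the start, with 0.282, 0.66 and 0.273 (mean 0.405 ± 0.221, SD, n = 3). Gr63a was thus highest in replicate 1, and Gr97a and Or67a were both highest in replicate 2.

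The other 7 of the 10 highest weaker entries had mean relative signals between 0.273 and 0.339. Ir60a had its entry 986 bp upstream in an intron of nord, Obp83cd 865 bp upstream, Obp83ef 135 bp upstream and Gr77a 162 bp upstream in an intron of CG13252. Gr94a had one 279 bp upstream that lay in an intron of p53, the tumour suppressor gene, 180 bp from a p53 start. Or92a, a receptor gene for vinegar and butter odours, had one 961 bp upstream and 81 bp from MtnB, a metallothionein gene, found in replicates 1 and 2 only. Ir85a had one 910 bp upstream, found in replicates 1 and 3 only.

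Sequence at 5 of these weaker summits is printed to compare entries of the genes' own (Or67a, Obp83cd, Obp83ef) with entries nearer to a neighbour (Gr63a, Gr94a). Each is 101 bp on the plus strand of the RefSeq Release 6 genome (dm6), at chr3L:9528990-9529090 for Or67a, chr3R:6107219-6107319 for Obp83cd, chr3R:6111119-6111219 for Obp83ef, chr3L:3896791-3896891 for Gr63a and chr3R:23051360-23051460 for Gr94a. Capitals mark GAGAG, the E box CACGTG of the clock activators CLOCK and CYCLE, and the cyclic AMP response element TGACGTCA.
Or67a: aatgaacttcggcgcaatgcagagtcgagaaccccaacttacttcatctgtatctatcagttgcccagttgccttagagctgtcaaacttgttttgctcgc
Obp83cd: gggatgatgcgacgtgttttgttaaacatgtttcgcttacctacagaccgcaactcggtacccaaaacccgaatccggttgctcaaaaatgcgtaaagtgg
Obp83ef: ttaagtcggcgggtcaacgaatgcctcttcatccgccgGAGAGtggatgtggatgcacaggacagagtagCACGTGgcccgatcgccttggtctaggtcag
Gr63a: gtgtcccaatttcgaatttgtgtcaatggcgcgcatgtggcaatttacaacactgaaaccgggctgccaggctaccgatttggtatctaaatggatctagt
Gr94a: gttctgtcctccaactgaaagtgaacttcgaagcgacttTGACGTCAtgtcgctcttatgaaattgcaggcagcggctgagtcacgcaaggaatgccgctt

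The E box was found at 1.12% and the cyclic AMP response element at 0.421% of all optimal summits, so both are uncommon words at Vrille peaks. Obp83cd, Obp83ef and Obp83g are neighbours within 4169 bp on 3R, and each of the 3 had an entry upstream of its start. In rank these were 14521 for Obp83cd, 14895 for Obp83ef and 708 for Obp83g, so 1 of the 3 passed the IDR threshold.

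Just outside the window, 8 chemosensory genes had their nearest optimal summit between 1 and 2 kb from a start. The last summit inside the window was that of Or88a at 788 bp, and the first outside was Obp28a, a carrier abundant in the antenna, at 1132 bp. The highest peak within 2 kb of any of the 230 genes was among these 8. It ranked 31 in the pooled list and lay 1928 bp from Obp93a, with relative signals of 9.35, 8.67 and 7.44 in replicates 1, 2 and 3 (mean 8.49 ± 0.971, SD, n = 3). Its summit lay in a UTR of CG5793, 45 bp from a CG5793 start, so it belonged to that gene by the nearest start.

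The same held for most of the others. The summit near Obp28a lay 74 bp from Ziz, the one 1376 bp from Gr39b, a bitter receptor gene, lay 145 bp from CG8665, the one 1852 bp from the larval receptor gene Or45b lay 188 bp from Alp6, an alkaline phosphatase gene, and the one 1911 bp from Or85f, a receptor gene for odours of parasitoid wasps, lay 48 bp from CG34117. Obp83ef, at 1880 bp, was near the summit counted for Obp83g. For Or92a at 1417 bp and Gr77a at 1920 bp the chemosensory start was the nearest, and both summits lay downstream of it. Within 2 kb of a start, 15 of the 230 genes had an optimal summit, against 33.2% of all genes.

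Optimal summits were also rare inside these genes. A single gene, Ir68a, held an optimal summit between its ends (0.435% of 230), against 18.8% of all genes. Ir68a encodes a receptor subunit of moist-sensing neurons, and the summit lay in one of its introns at position 11233723 of 3L, 2495 bp from its start. The relative signal was 1.19, 1.01 and 1.37 in replicates 1, 2 and 3 (mean 1.19 ± 0.178, SD, n = 3). Chemosensory genes were short, with a median length of 1498 bp against 2166 bp for all genes. Cpr genes, with a median length of 1094 bp, held one in 4.29% of cases and Cyp genes, with 2102 bp, in 9.41%.

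Measured without a window, the median distance from a chemosensory gene to the nearest optimal summit was 15640.5 bp, against 5585 bp for all genes. Gr genes had the shortest median, 8680.5 bp, followed by Ir (13642.5 bp), Obp (16259 bp) and Or genes (18777 bp). An optimal summit lay within 5 kb for 20% of the chemosensory genes and 47.5% of all genes, within 10 kb for 37% of the chemosensory genes and 63.8% of all genes, and within 20 kb for 60.4% of the chemosensory genes and 80.4% of all genes. The farthest were Ir41a, an antennal receptor gene for polyamines, at 691463 bp, and Or13a at 104501 bp.

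**Figure D5:**
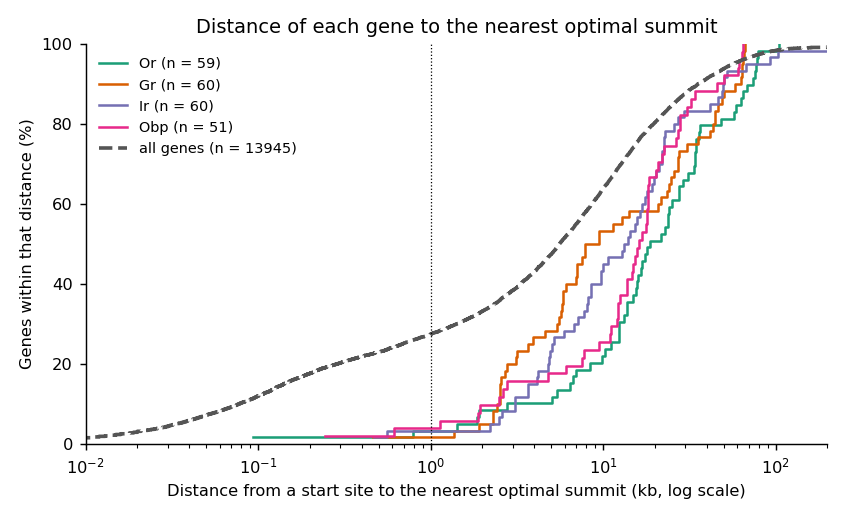
Cumulative share of genes (%) by the distance from their start sites to the nearest optimal summit (kb, log scale), for the 4 chemosensory families and all 13945 genes (dashed). The dotted line is the 1 kb window. The 4 family curves stay below the dashed curve from 0.1 kb to 10 kb, and the Gr curve rises first, with 53.3% of Gr genes within 10 kb.

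The co-receptors, which are used in many more neurons than any tuning receptor, had no peak either. Ir25a (nearest optimal summit 2585 bp away), Ir8a (13991 bp) and Ir76b (29422 bp) had no entry of the pooled list within 1 kb, although replicate 3's own list held one near Ir25a. Orco had no pooled entry there either, with its nearest summit 42109 bp away. Of the 9 sugar receptor genes Gr64a alone was bound (11.1%, against 27.5% of all genes). Gr5a, a trehalose receptor gene, had its nearest summit 2540 bp away, Gr61a 3665 bp, and the fructose sensor gene Gr43a 20711 bp. Within the Gr64 cluster the distance to the Gr64a summit grew along the cluster, from 2299 bp for Gr64b and Gr64c, which share a start, through 5756 bp for Gr64d and 5835 bp for Gr64e to 9493 bp for Gr64f.

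Gr21a, the partner of Gr63a in the carbon dioxide receptor, had its nearest optimal summit 44753 bp away. The bitter co-receptor gene Gr66a was 7023 bp from one, and Gr28b, which has 5 start sites and serves in sensing light and warmth, 5401 bp. Of 24 Or genes known from larval olfactory neurons 0 were bound, against 27.5% of all genes, and 0 had a weaker entry of the pooled list, against 14.7% of all genes. The list of replicate 3 held an entry near 1 of them, Or45b. Of 14 Ir genes of the antenna 0 were bound, against 27.5% of all genes. A weaker pooled entry was found at 1 of the 14, Ir68a, against 14.7% of all genes.

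Other genes of the chemosensory system were read from lists. Of 39 accessory genes, which include Orco, pheromone carriers, sodium and Trp channels and the CheA and CheB genes, 3 were bound (7.69%, against 27.5% of all genes). Phk-3, which encodes a small secreted carrier, had a summit 289 bp from a start and relative signals of 0.546, 0.785 and 0.607 (mean 0.646 ± 0.124, SD, n = 3). CheA56a had 1.32 ± 0.131 (SD, n = 3) at a summit nearer to CG30122. CheB42c had 0.588 ± 0.154 (SD, n = 3) 75 bp from its start, with mim also within 1 kb of that summit. The pheromone carrier gene lush, 6226 bp from the nearest optimal summit, and the pheromone co-receptor gene Snmp1, at 3157 bp, were not bound.

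Of 14 transcription factors known to set olfactory neuron fate and receptor choice, 5 were bound (35.7%), near the 27.5% of all genes. With 14 genes, this count does not set the list apart from all genes. The 5 were zf30C, a zinc-finger gene (1.8 ± 0.0901), Xbp1, a bZIP gene of the unfolded protein response (1.2 ± 0.709), Eip93F, an ecdysone-induced gene (0.784 ± 0.176) and pdm3, a POU factor gene (0.526 ± 0.23; SD, n = 3 each), together with rn, a zinc-finger gene of leg and antenna patterning (0.645 ± 0.176, SD, n = 2). Of 13 annotated glutamate receptor genes of synapses, the family from which Ir genes are thought to have arisen, 0 were bound and 0 had a weaker pooled entry, against 27.5% and 14.7% of all genes.

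Some features that go with binding over all genes were less common in the chemosensory families. These are several starts and a close neighbour, and both make a call easier under the rule itself. Any start of a gene counted, and a summit counted for every start within 1 kb. A single start site was annotated for 90.9% of the chemosensory genes and 73.5% of all genes, and another gene's start lay within 1 kb for 24.8% of the chemosensory genes and 42.9% of all genes. Among genes with 1 start, 2.87% of the chemosensory genes and 19.9% of all genes were bound. Among genes with 1 start and no other start within 1 kb, 3 of 158 chemosensory genes were bound (1.9%), against 14.8% of all such genes. Among genes with another start within 1 kb, 3 of 57 chemosensory genes (5.26%) and 35.5% of all such genes were bound.

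The neighbours themselves were seldom bound. There were 36 non-chemosensory genes with a start within 1 kb of a chemosensory start, and 5 of them were bound (13.9%), against 27.5% of all genes. Beside Letm1, CG11594 and Cyp9h1 these were p53, next to Gr94a, and Plp, next to Or71a. Neither Gr94a nor Or71a was bound. CG12402 starts 1124 bp from Or88a and so is not among the 36. Where the only close start was that of another chemosensory gene, 0 of 23 chemosensory genes were bound. Among all genes whose only close start is a chemosensory one, these 23 included, 4 of 55 were bound. Of 39 chemosensory genes that lie inside another gene or share both its ends, as Gr64b and Gr64c do, 0 were bound. Over the genome 364 of 1875 such genes were bound.

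Chemosensory genes are often arrayed side by side. Ordered by position, 110 of them stood in 36 runs of 2 or more with no other protein-coding gene between them in that order, and 120 stood alone. A run can still hold the start site of another gene. CG30259 starts 257 bp from Obp58b, inside the run from Obp59a to Obp58d. Of the 110, 4 were bound and 7 had only a weaker entry, and of the 120, 3 were bound and 15 had only a weaker entry. Over all genes 27.5% were bound and 14.7% had only a weaker entry. All 4 bound genes in runs (Gr64a, Ir60b, Ir94h and Obp83g) stood at an end of their run, where 72 of the 110 genes stand. Of the 38 inner genes 0 were bound. With 3.04% of the 230 genes bound, 38 genes are too few to tell inner from end genes. In the order used, only end genes stand next to a non-chemosensory gene, although Obp58b, an inner gene, has the start of CG30259 close by. The summits of Gr64a and Ir60b lay nearer to CG11594 and Letm1.

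The 36 runs covered 373 kb and held 7 optimal summits, or 18.7 per Mb, against 69.2 per Mb over the 6 arms. They held 34 weaker entries, or 91.1 per Mb, against 155 per Mb over the arms. The 2 spans are not alike, because runs were picked as stretches of chemosensory genes in a row, while the arms include all promoters. Each run was also cut at the outer ends of its genes, which left the summits of Gr64a, Ir60b and Obp83g outside. How far the lower densities in runs reflect these rules was not tested. In 32 runs there was no optimal summit and in 29 no entry of the pooled list. The 7 summits fell in 4 runs, with 4 of them in Gr93a to Gr93d and 1 each in Obp85a to Or85c, Or56a to Obp56h and Ir94f to Ir94h. By arm, bound chemosensory genes numbered 4 of 54 on 3R, 2 of 75 on 2R, 1 of 37 on 3L, 0 of 33 on 2L and 0 of 31 on X, while between 25.4% and 29.1% of all genes were bound on these 5 arms.

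Promoters of the chemosensory genes, taken as the 250 bp before and the 50 bp from the start, differed from those of all genes in some short words on either strand. The site of DREF, TATCGATA, a word of broadly active promoters, was found in 1 of 230 (0.435%), against 9.36% of all promoters. GAGAG was found in 20.9% of chemosensory promoters and 29.7% of all promoters, and the word CAGCTG in 9.57% of chemosensory promoters and 17.7% of all promoters. The TATA word TATAAA was found in 57.8% of chemosensory promoters and 45.8% of all promoters, with 78% in Or, 70.6% in Obp, 55% in Ir and 30% in Gr promoters. Over all genes, 34% of those with the DREF site and 26.8% of those without were bound. For TATAAA, 25.7% of genes with the word and 28.9% of those without were bound. Whether these words bear on the low share was not tested. Median G and C content was 39.3% in chemosensory promoters and 38% in all promoters.

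The VP box was found in 4 of the 230 promoters (1.74%), against 2.6% of all promoters, and none of these 4 genes (Gr36b, Ir94g, Or59a and Or85c) was bound or had a pooled entry within 1 kb. Over all genes, 29% of those with a VP box in the promoter and 27.4% of those without were bound.

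Short pieces of 3 of these promoters show an exact Vrille word without a peak. They are given from the RefSeq Release 6 genome (dm6), on the gene's own strand and with the box in capitals. They lie at chr2L:17178530-17178569 (plus strand) for Gr36b, chr3R:23483666-23483705 (plus strand) for Ir94g and chr3R:8513196-8513235 (minus strand) for Or85c. The first base of the box stands 226 bp, 181 bp and 197 bp upstream of the 3 starts in that order. In Gr36b the capitals are the reverse complement of the second word searched.
Gr36b: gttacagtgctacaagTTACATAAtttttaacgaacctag
Ir94g: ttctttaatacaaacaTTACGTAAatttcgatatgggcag
Or85c: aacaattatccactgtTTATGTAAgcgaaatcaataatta

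The nearest optimal summit was 64792 bp from Gr36b, 5049 bp from Or85c and 3076 bp from Ir94g. For Ir94g that summit is the one counted for Ir94h, the next gene of the same run.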

How the data were processed

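The deposited peak lists are in narrowPeak format on dm6, with 30000 entries for each replicate and for the pooled reads and 9264 in the optimal list. The authors' signal value of each entry is not scaled between libraries, and the deposited −log10 q values were read only for their range. Per the depositors' note files, the replicate and pooled lists were input for IDR and the optimal list was made from them. Which aligner, peak caller and IDR threshold the authors used is not given in the sources used here. Per the labels, chromatin was sonicated to 200 to 800 bp. The lists hold no read counts, so depth is unknown and no counting interval is given.

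Summits were set against 19607 starts of protein-coding transcripts (Ensembl release 115). Signal at a peak is that of the highest entry overlapping by at least 1 bp, divided by the replicate's median over optimal peaks (88.2, 50.8 and 84.9 in replicates 1, 2 and 3). Entries of the pooled list outside the optimal list count as below the threshold. Motifs were searched within 50 bp of a summit. The summit-to-start assignment was tested on simulated data. Python 3.11.15, NumPy 2.4.6, pandas 2.3.3, pyfaidx 0.9.0.4 and matplotlib 3.10.9 were used. With 1 group, no test was made, and counts are given beside those of all genes.

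The members, lists, motifs and alternatives were chosen with earlier results of these data known. Genes named are every bound member and its neighbour, members with an optimal summit 1 to 2 kb away or inside the gene, the 10 with the highest entries below the threshold, and fixed co-receptor, sugar, carbon dioxide, Gr28b and Gr66a genes. Others were named after their values were seen.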

Additional observations from a re-analysis of the deposited data

How the results depend on the processing

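The count of 7 bound chemosensory genes depended on the rule. It was 4 with a 500 bp window (23% of all genes), 15 with 2 kb (33.2% of all genes), 3 with nearest starts only (22.1%) and 29 with all pooled entries (42.1%). The same shares of all genes stand beside the family counts below. With the stronger 50% of the optimal peaks it was 6 (18.2% of all genes), and it stayed within 1.5 times of 7 in the other alternatives. Or genes numbered 1 with 500 bp, 5 with 2 kb, 0 with nearest starts, 1 with the stronger 50% and 5 with all entries. Gr genes numbered 3 with 2 kb, 0 with nearest starts and 7 with all entries. Ir genes numbered 1 with 500 bp, 1 with nearest starts and 9 with all entries, and Obp genes 1, 5 and 8 with 500 bp, 2 kb and all entries. Leaving out replicate 1, 2 or 3 gave 7, 5 and 5 bound genes, against 22.1%, 23.5% and 23% of all genes. Or genes then numbered 1 to 2 and Ir genes 1 to 2. Without replicate 2 or 3, Or49b and Ir60b were lost, both absent from the highest entries of replicate 1. The 22 genes with only a weaker entry numbered 14 with 500 bp, against 14.1% of all genes. The mean signal of Ir60b was 1.56 on the scale of peaks near starts. No paired analysis was possible because there is 1 group. Lists of 30000 entries limit how weak a peak can be seen, and the library depth is unknown.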
